A study of Rattus norvegicus with 2 samples.

Results

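The platelet-derived growth factor (PDGF) system and a set of genes used to recognise pericytes were followed in cultured rat astrocytes with and without expression of 5ppase. The members were chosen by name: the ligands Pdgfa, Pdgfb, Pdgfc and Pdgfd, the receptors Pdgfra and Pdgfrb, and the pericyte genes Mcam, Anpep, Abcc9 and Kcnj8. Every probe set (a group of short array probes that together read 1 transcript) that carried only a member's symbol was taken. This gave 14 probe sets for 9 of the 10 members, out of 14218 genes with such a probe set in all. Pdgfb had no probe set with its symbol alone and is not analysed here.

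Astrocytes came from the hippocampus of Sprague-Dawley rat embryos at embryonic day 18, and both cultures are labelled normal in genotype. The control culture carried a vector for a red fluorescent protein alone, and the other culture expressed that protein from the same transcript as 5ppase. The labels write the second construct in more than 1 way and name neither the phosphatase gene nor its species; 5ppase is the usual short form for an inositol phosphate 5-phosphatase, which destroys the messenger that releases calcium from internal stores. The design sets active calcium signalling (control) against none (5ppase). Each group is 1 sample on 1 single-colour Affymetrix array. Every value below therefore describes 2 arrays, without a replicate check, a test or a p-value, and their number limits the precision. The labels give neither the share of cells that took up a vector nor the purity of the cultures.

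PDGF ligands are secreted dimers that bind receptor tyrosine kinases on neighbouring cells. PDGF-A and PDGF-C act mainly through PDGF receptor alpha, which marks oligodendrocyte progenitors and fibroblasts in the brain, and PDGF-B and PDGF-D act mainly through PDGF receptor beta, which marks pericytes, the contractile cells wrapped around capillaries. Astrocytes and neurons are known sources of PDGF-A, and endothelial PDGF-B recruits pericytes to vessels. Of the pericyte genes, Mcam encodes the adhesion molecule CD146, Anpep the membrane aminopeptidase N (CD13), and Abcc9 and Kcnj8 the sulfonylurea receptor and the pore subunit of a potassium channel gated by ATP.

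The promoters of the member at the low end of the receptors (Pdgfra), of its ligand with a lower signal (Pdgfa) and of its ligand with a higher one (Pdgfc) are printed to show the sequence around the start of each gene model. Each runs from 250 bases before to 50 after the start of the gene model in RefSeq (GRCr8), which need not be the start used in these cells. Capitals mark any match, on either strand, to AP-1 (TGANTCA), the cyclic AMP response element (TGACGTCA), Sp1 (GGGCGG), the E-box (CANNTG), the TATA box (TATAAA) or the CArG box of serum response factor. No marked matches overlap one another. Pdgfra lies at chr14:33408467-33408766 on the minus strand, Pdgfa at chr12:20759116-20759415 on the plus strand and Pdgfc at chr2:168614918-168615217 on the plus strand.
Pdgfra: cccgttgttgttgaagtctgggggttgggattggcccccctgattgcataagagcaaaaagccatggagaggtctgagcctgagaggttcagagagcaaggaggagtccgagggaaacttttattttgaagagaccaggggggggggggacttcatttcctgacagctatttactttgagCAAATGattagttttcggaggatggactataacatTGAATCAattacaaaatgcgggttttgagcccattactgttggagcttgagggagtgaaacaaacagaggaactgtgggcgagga
Pdgfa: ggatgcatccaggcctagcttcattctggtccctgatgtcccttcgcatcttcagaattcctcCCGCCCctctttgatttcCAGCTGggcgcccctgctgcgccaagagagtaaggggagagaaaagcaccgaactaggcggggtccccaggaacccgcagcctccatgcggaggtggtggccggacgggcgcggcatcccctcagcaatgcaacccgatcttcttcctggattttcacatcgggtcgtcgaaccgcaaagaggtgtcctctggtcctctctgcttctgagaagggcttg
Pdgfc: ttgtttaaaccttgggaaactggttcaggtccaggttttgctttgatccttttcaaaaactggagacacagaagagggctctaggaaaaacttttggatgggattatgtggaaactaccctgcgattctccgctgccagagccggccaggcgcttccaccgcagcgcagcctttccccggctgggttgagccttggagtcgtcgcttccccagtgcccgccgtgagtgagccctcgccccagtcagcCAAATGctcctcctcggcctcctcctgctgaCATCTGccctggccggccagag

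The Pdgfra window held 1 match to the AP-1 letters, TGAATCA, and 1 E-box. The AP-1 match rests on N being taken as any base, here A. The Pdgfa window held 1 Sp1 and 1 E-box match, and the Pdgfc window 2 E-boxes. The Pdgfc gene model begins at ATG, the letters of a start codon, so its first bases may be coding and the window may miss the promoter. Its CAAATG match spans these letters and its CATCTG match lies after them. Promoter sequences were at hand for 8 members, and Mcam and Pdgfrb were not among them. Of these 8 windows 1 held the AP-1 letters, against 7.33% of all 33469 promoters of the same length, 5 held Sp1 (33.1% of all) and 5 an E-box (72.1%). None of the 8 held the cyclic AMP response element (1.83% of all), the CArG box (1.64%) or a TATA box (14.2%). A match describes these letters only.

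Signals were read against a floor of 62.0, the 40th percentile of both arrays together, below which they were not compared. A gene counted as compared where its brightest probe set lay above that floor on both arrays and reached the 60th percentile (208) on at least 1, which held for 8261 genes. Ratios are log2 of 5ppase over control. Of the 9 members with a probe set 6 were compared, and all 6 reached 208 on both arrays, so none passed through 1 array alone. The other 3, Anpep, Abcc9 and Kcnj8, did not reach the floor on either array at any probe set. Of the 6, 5 had a lower and 1 a higher signal in 5ppase at the brightest probe set, where 52.1% of all compared genes had a lower one. The 5 include Pdgfrb, whose second probe set was higher. Only Mcam, by its brighter probe set, was at least 2-fold lower and none was at least 2-fold higher, where 1.42% and 1.5% of all compared genes were. At 1.5-fold, 2 members were lower (Mcam and Pdgfra) and none higher, beside 5.46% and 5.25% of all compared genes. The median ratio of the 6 was -0.31, and that of all compared genes was -0.017.

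**Figure D1:**
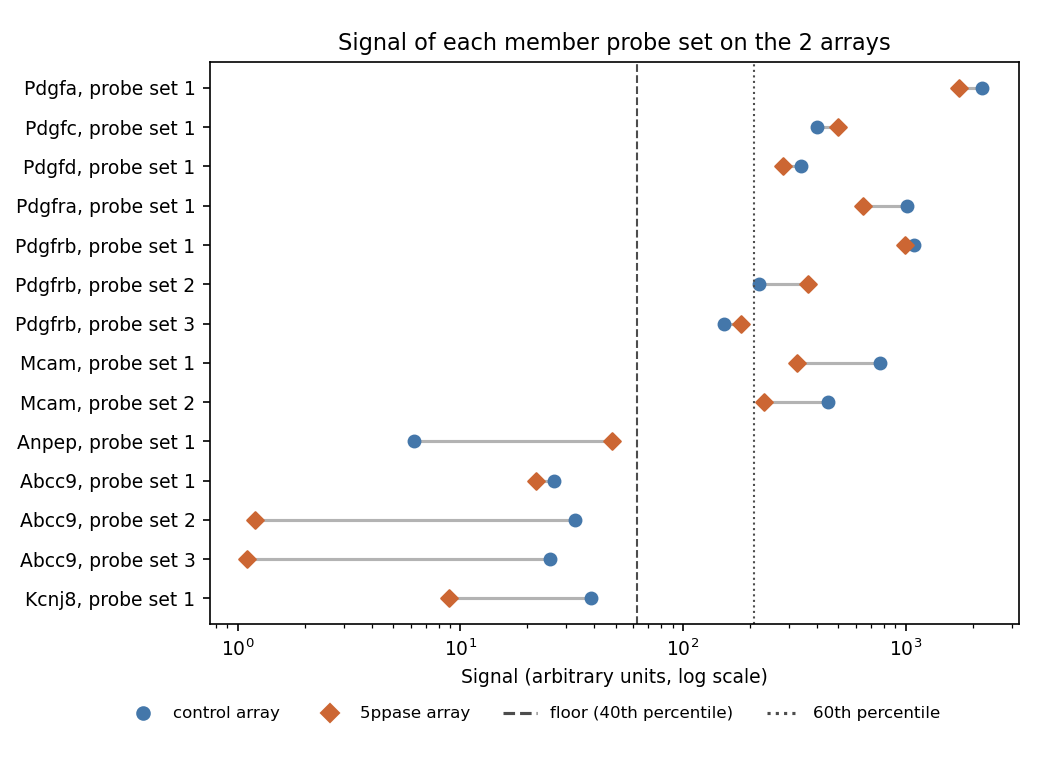
Signal of each of the 14 member probe sets in control (circles) and 5ppase (diamonds), on a log axis in arbitrary units; probe sets of a gene are numbered from the brightest, the dashed line is the floor of 62.0 and the dotted line the 60th percentile of 208. The 5 probe sets of Anpep, Abcc9 and Kcnj8 lie left of the floor on both arrays, and both Mcam probe sets are lower in 5ppase.

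Mcam was the member furthest apart. Its brighter probe set gave 765 in control and 326 in 5ppase, a ratio of -1.23 or 2.35-fold lower. Its second probe set gave 451 and 232, a ratio of -0.96 or 1.94-fold lower, just short of 2-fold. Both probe sets were therefore high in control and low in 5ppase. Only 64 of the 8261 compared genes had a ratio below that of the brighter Mcam probe set, which put it at the 0.775th percentile. The probe sets differed from each other by 0.27, and of the 1883 genes with 2 compared probe sets 39.1% differed by at least as much. Across those genes the spread of a ratio between probe sets was 0.26 (SD of the difference divided by the square root of 2), a measure of technical noise that leaves out any difference between 2 cultures. The Mcam ratio stayed between -1.26 and -1.19 over the other scalings of the arrays.

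Among the receptors, Pdgfra was lower in 5ppase. Its single probe set gave 1018 in control and 644 in 5ppase, a ratio of -0.66 or 1.58-fold lower, at the 3.98th percentile of compared genes. It has no second probe set here to set beside it, and its ratio lay between -0.69 and -0.62 over the other scalings. As RNA from a whole culture was read, fewer cells of a type and less RNA per cell cannot be told apart, for this gene and for each one below.

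Pdgfrb, the receptor of mural cells, gave no single direction. The brightest probe set gave 1097 in control and 992 in 5ppase, a ratio of -0.15 at the 33.2nd percentile of compared genes. The second gave 221 and 363, a ratio of 0.72 or 1.65-fold higher. Another, above the floor but too dim to be compared, gave 153 and 182 (0.25). The latter 2 probe sets carry the same sequence accession in the annotation and so are not independent readings. The brightest and second differed by 0.87, and only 56 of the 1883 genes with 2 compared probe sets (2.97%) differed by that much or more. The brightest is of the _s_at kind, whose probes can read more than 1 transcript, and without such probe sets Pdgfrb stood at 0.72. The 2 arrays therefore give no settled ratio for this receptor.

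**Figure D2:**
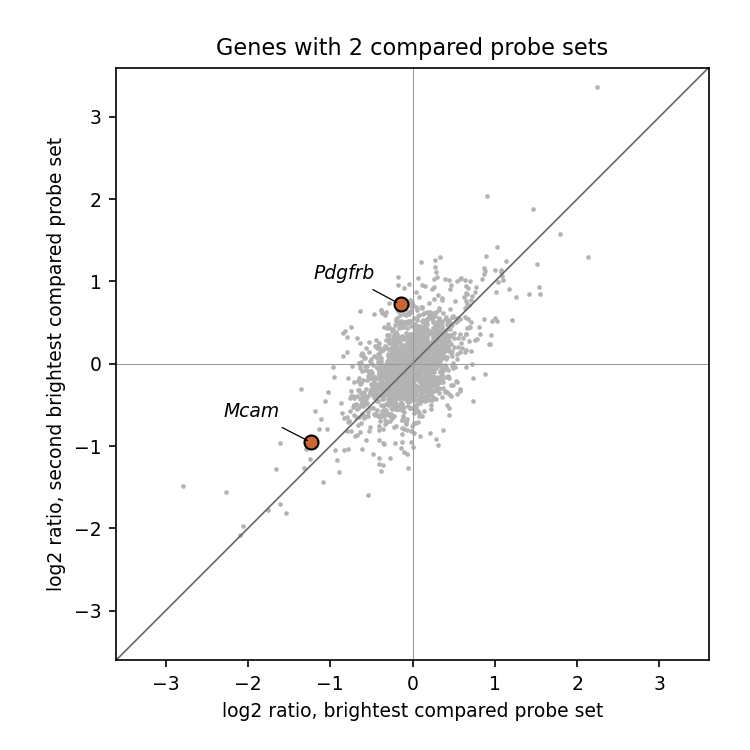
The log2 ratio (5ppase over control) of the brightest compared probe set (horizontal axis) and of the second brightest (vertical axis) for the 1883 genes that have 2, grey points, with the line of equal ratios; Mcam and Pdgfrb, the members among them, are the large points. Mcam lies near the line at -1.23 and -0.96, and Pdgfrb lies well above it at -0.15 and 0.72.

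The ligands differed little between the arrays, and not all in 1 direction. Pdgfa, the classical astrocyte ligand of the alpha receptor, gave 2200.0 in control and 1733 in 5ppase, a ratio of -0.34 or 1.27-fold lower, at the 15.1st percentile. Pdgfd, a ligand of the beta receptor that is released in a latent form, gave 338 and 281 (-0.27, the 20.5th percentile). Pdgfc, the latent ligand of the alpha receptor, was the only compared member whose brightest probe set was higher in 5ppase, at 400.5 and 498 (0.31, the 85.6th percentile). Each of the 3 ligands lay within 1.5-fold, as did 89.3% of all compared genes. Each has 1 probe set, and the sizes of their ratios are close to the probe set spread of 0.26. Under the other scalings Pdgfa kept a ratio of -0.37 to -0.33, Pdgfd of -0.30 to -0.23 and Pdgfc of 0.28 to 0.35.

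**Figure D3:**
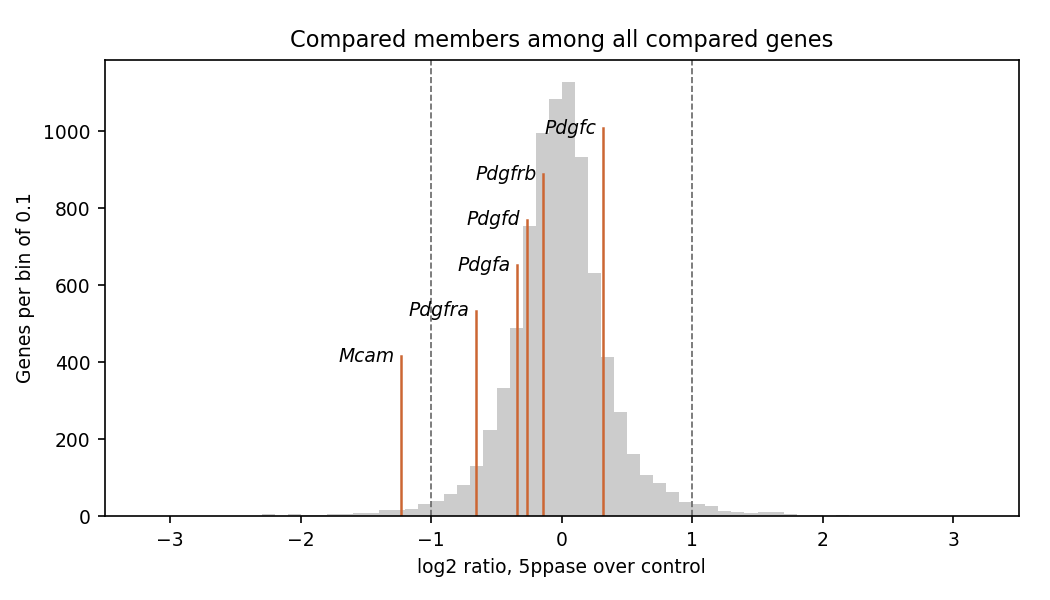
Histogram of the log2 ratio of 5ppase over control for the 8261 compared genes (grey, genes per bin of 0.1), with a vertical line at the ratio of each of the 6 compared members; the height of a line only makes room for its name, and dashed lines mark 2-fold. Mcam alone lies beyond the 2-fold line, and Pdgfc alone lies to the right of 0.

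Anpep, Abcc9 and Kcnj8 gave no measurable level on either array. Anpep, the aminopeptidase, gave 6.2 in control and 48.0 in 5ppase. Kcnj8, the channel pore, gave 38.7 and 8.9. Abcc9, the regulatory subunit of the same channel, gave 26.4 and 22.0, 32.7 and 1.2, and 25.2 and 1.1 at its 3 probe sets. The 5 probe sets of these genes all lay under the floor on both arrays, where signals have no usable order, so no ratio is given. Abcc9 and Kcnj8 are the defining channel genes of brain pericytes, and the label of the set as pericyte genes therefore rests here on Mcam and Pdgfrb, which other cells of a brain culture also make.

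Relatives of these 3 genes were read for comparison. The list of related potassium channel and ABC transporter genes had 11 genes with a probe set, of which 3 were compared. All 3, with a median of -0.097, lay within 1.5-fold, as did 89.3% of all compared genes. The brightest of the 3 by mean signal were Abcc1, at 479 and 686 (0.52), and Abcc5, at 511 and 471 (-0.12). A second probe set of Abcc5 gave 416 and 288 (-0.53). Kcnj11 and Abcc8, the pore and receptor of the pancreatic form of the channel, chosen after their values were seen, gave 110.7 and 99.9 and 43.3 and 41.9. Of the 9 peptidase relatives of Anpep 5 were compared, all within 1.5-fold (median 0.096), with Erap1 at 2937 and 3138 and Rnpep at 1786 and 1843.

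Of the compared members, only Mcam (lower) and Pdgfrb (no settled ratio) are pericyte genes. Other genes of mural cells, the class that holds pericytes and vascular smooth muscle, were mostly higher in 5ppase. Of 44 with a probe set 20 were compared, 16 with a positive and 4 with a negative ratio and a median of 0.26, where 47.9% of all compared genes had a positive ratio; 12 did not reach the floor on either array and 12 were dim. At 1.5-fold 5 were higher and 1 lower, beside 5.25% and 5.46% of all compared genes. The proteoglycan NG2 (Cspg4), found on pericytes and oligodendrocyte progenitors, gave 262 and 629 (1.27), and the smooth muscle myosin Myh11 gave 857 and 1937 (1.18). The sphingosine phosphate receptor S1pr3 was lower, at 7575 and 2770 (-1.45). Cspg4 and S1pr3 have 1 probe set each, and a further one of Myh11 (41.8 and 39.1) did not reach the floor. The genes most restricted to brain pericytes in the list, named after their values were seen, did not reach the floor either: Rgs5 at 31.4 and 34.1, Vtn at 20.8 and 35.4, Higd1b at 33.9 and 7.5 and Atp13a5 at 11.1 and 0.9. The summed signal of the list was 112965 in control and 130337 in 5ppase. Most of that sum came from Vim (37513 and 40821), Tagln (21879 and 28754) and Acta2 (14268 and 21070), named after their values were seen.

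Genes that process or bind PDGF ligands were near even. Of 17 genes 15 were compared, 14 of them within 1.5-fold, with a median of 0.051. Plat and Plau, the plasminogen activators known to release active PDGF-C and PDGF-D, were named after their values were seen. Plat gave 3789 and 2738 (-0.47) and Plau gave 455 and 459 (0.01) at its brightest probe set. At its second probe set Plau gave 254 and 154 (-0.72), so its 2 readings differed. Placental growth factor (Pgf), a relative of the PDGF ligands, gave 59.3 in control, under the floor, and 512 in 5ppase, at least 8.25-fold higher as the bright signal over the floor. Its second probe set gave 72.1 and 446.5. Among 12 relatives in the PDGF and VEGF families, Pgf included, 4 were compared, all within 1.5-fold, with a median of 0.25. With so few genes that median moved to 0.51 with the floor at the 25th percentile, 0.52 with a pseudocount in place of the floor and 1.29 over 2 second probe sets.

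Downstream of the receptors, the adaptors, kinases and phosphatases that pass on the signal were mostly even as well. Of 26 with a probe set 22 were compared and 21 lay within 1.5-fold, with a median of 0.015. The exception was Pik3r1, the regulatory subunit of phosphoinositide 3-kinase that docks on phosphorylated PDGF receptors, at 1327 and 564 (-1.23), read by 1 probe set. Of 16 genes that restrain the receptors 15 were compared, 14 within 1.5-fold (median -0.093); the brightest were Cav1, at 14503 and 12318 (-0.24), and Dusp6, at 4618 and 4844 (0.069). Of the 18 early response genes that PDGF and many other stimuli induce, 17 were compared, 8 of them (47.1%) at least 1.5-fold lower and none that much higher, against 5.46% and 5.25% of all compared genes. The median of that list was -0.44. The 4 of its genes with a compared second probe set had a median of 0.096 at their brightest and 0.21 at their second probe sets. The lowest ratios were those of Fosb, at 326 and 118 (-1.46), and of Nr4a1, at 622 and 287 (-1.11), both transcription factors. Whether these genes answered PDGF in either culture was not measured.

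**Figure D4:**
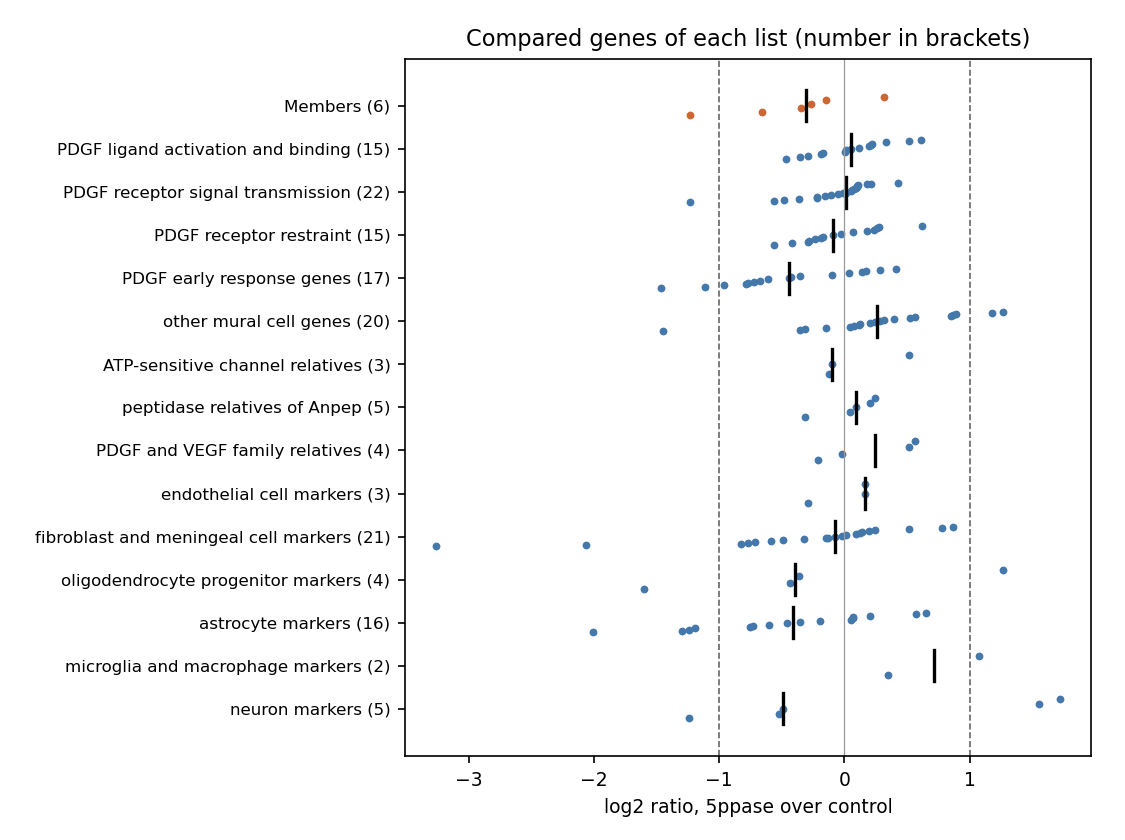
The log2 ratio of 5ppase over control for every compared gene (points) of the members and of the 14 lists, with the number of compared genes in brackets, the median as a black bar and dashed lines at 2-fold; vertical spacing within a list only separates points. The members, 5 of 6 of them PDGF ligands or receptors, have a median of -0.31 and the other mural cell genes one of 0.26. The lowest list medians are those of the neuron markers (-0.49), early response genes (-0.44), astrocyte markers (-0.41) and oligodendrocyte progenitor markers (-0.40).

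Markers of the cell types that make Pdgfra, Pdgfrb and Mcam were read beside them, and their part in the member ratios was not tested. Of the markers of astrocytes, the labelled cell type, 21 had a probe set and 16 were compared. The 3 that did not reach the floor on either array were Slc1a2 (24.1 and 25.7), Gjb6 (36.8 and 8.6) and Ntsr2 (54.9 and 8.5). Aldh1l1, named like these after its values were seen, gave 62.9 and 49.8. Of the compared ones 4 were at least 2-fold lower and none that much higher (1.42% and 1.5% of all compared genes). Their median was -0.41, and the summed signal of the list was 129626 and 103734. Of the 16 compared, 10 had a negative and 6 a positive ratio (up to 0.65), where 47.9% of all compared genes had a positive one. Gfap gave 17525 and 7408 (-1.24), Fabp7 5972 and 1486 (-2.01) and Mlc1 2551 and 1037 (-1.30). Aqp4, under the floor in 5ppase and so not among the 4, gave 432 and 25.1, at least 6.97-fold lower. The 6 astrocyte genes with a compared second probe set had a median of 0.14 at their brightest and 0.13 at their second probe sets. Among oligodendrocyte progenitor markers, of 14 with a probe set 4 were compared (median -0.40, or -0.019 over all 14 with a pseudocount and no floor), 5 did not reach the floor on either array and the summed signal was 2915 and 2422. Of these Ptprz1 gave 977 and 323 (-1.60) and Cspg4 was higher, as above, while of the lineage factors, named after their values were seen, Olig1, Olig2 (44.8 and 47.1) and Sox10 (58.1 and 16.7) did not reach the floor and Nkx2-2 (81.7 and 29.4) reached it in control. No list gene was at a signal of 0.

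Fibroblast and meningeal markers, cells that carry both PDGF receptors, were bright: of 29 genes 21 were compared, 12 with a negative and 9 with a positive ratio (median -0.070), and the summed signal was 272884 in control and 259708 in 5ppase. At 1.5-fold 5 of the 21 were lower and 2 higher, beside 5.46% and 5.25% of all compared genes. Mgp (1902 and 199, -3.26) and Igfbp5 (2218 and 530.1, -2.06) were the 2 at least 2-fold apart. Both were lower, where 1.42% of all compared genes were at least 2-fold lower. Endothelial markers were mostly dim: 11 of 20 did not reach the floor on either array, among them, named after their values were seen, Pecam1 at 8.7 and 22.5 and Cldn5 at 22.9 and 30.9. The 3 compared (median 0.16) included Slc2a1, at 2022 and 2264, and Erg, at 194 and 218, and the summed signal was 3302 and 3593. Of 16 microglial markers 11 did not reach the floor and 2 were compared (median 0.71), Tmem119 being higher at 1078 and 2273 (1.08). The summed signal was 2810 and 4531, most of it from Tmem119 and Cd14 (1428 and 1820). Named like Cd14 after their values were seen, Cx3cr1 (13.0 and 11.0) and P2ry12 (16.4 and 23.7) did not reach the floor. Of 19 neuron markers 12 did not reach it and 5 were compared (median -0.49). Tubb3 (87.9 and 290, 1.72) and Stmn2 (3766 and 11065, 1.55) were at least 2-fold higher and Gad1 (998 and 422, -1.24) lower. Of all compared genes 1.5% and 1.42% were. Second probe sets gave 20.1 and 47.7 for Tubb3, under the floor, 1925 and 3471 (0.85) for Stmn2 and 69.6 and 22.3 for Gad1. The summed signal was 10563 and 16103, or 6796 and 5038 without Stmn2.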

How the data were processed

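Gene expression was measured on 2 rat Affymetrix arrays, 1 control and 1 5ppase, grouped by title. Per the submitters' processing notes MAS5 was used, with its version and settings not given in the sources used here; the deposited intensities are linear and unlogged, 1 per probe set, and no detection calls were used. Both deposited columns had a 2% trimmed mean of 500.2 and medians of 107.1 and 109.4. Columns not used numbered 0.

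Of 31099 probe sets 20832 carried 1 symbol in the platform annotation, which can be old; 436 carried several and 9831 were not listed, and these were left unnamed. Current symbols came from RefSeq (GRCr8; 20764 matched, 0 changed). Both arrays were brought to 1 trimmed mean, signals under the floor were raised to it, which understates ratios of dim genes, and log2 ratios were taken with Python 3.11.15, numpy 2.4.6 and pandas 2.3.3. A gene was represented by its brightest probe set by mean signal. With 1 array per group no test was possible. The comparison was tested on simulated data.

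The members and the 14 lists (285 symbols, 261 found, 4 by synonym) were chosen with earlier results of these data known. Named genes were all members, up to 4 genes per list at least 2-fold apart or else the 2 brightest, and others marked as chosen after their values were seen. The 2 arrays give 1 ratio per gene, so no gene was named for a pattern like a member's. Inpp5a, the rat type I phosphatase gene, gave 994 and 1022 (0.041) at its brightest probe set. Its second probe set gave 10.4 in control, under the floor, and 133.6 in 5ppase, above the floor but too dim to be compared. No source used here says that the probes of Inpp5a read the construct, so they check no label. Alternatives were other scalings, floors, probe set rules and fold thresholds.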

Additional observations from a re-analysis of the deposited data

How the results depend on the processing

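With 1 array per group nothing here separates the vectors from differences between cultures, and signals under the floor limit what can be said of Anpep, Abcc9 and Kcnj8. With no rescaling, with equal medians, with quantile normalization, with a loess trend (span 0.3) taken out and with the floor lowered to the 25th percentile, the same 6 members were compared, 5 lower and 1 higher, with 1 at least 2-fold apart. A floor at the 60th percentile with the 75th for the brighter array left 4 members. A pseudocount of 6.4 with no floor or filter gave 3 of 9 members and 59 list genes at least 2-fold apart, against 1 and 17, and second brightest probe sets gave 0 of 2 members and 7 list genes. The added members under the pseudocount were Anpep (2.11) and Kcnj8 (-1.56), both under the floor on each array. With that pseudocount 6.86% of all genes were at least 2-fold lower and 7.81% higher. A 1.5-fold threshold gave 2 members and a 3-fold threshold 0. Pdgfrb changed sign with the mean of its probe sets (0.28), without probe sets of the _x_at and _s_at kinds (0.72) and with its second probe set (0.72). Mcam, Pdgfra, Pdgfa, Pdgfd and Pdgfc kept their sign in every alternative that gave them a value, and Mcam ranged from -1.26 to -0.96. For Pdgfra, Pdgfa, Pdgfd and Pdgfc, with 1 probe set each, other floors and probe set rules could only return the same ratio or none. Leaving out the rescaling changed almost nothing, as both columns already had a trimmed mean of 500.2. Their kept sign therefore rests on the remaining scalings and the pseudocount. Of the list medians beyond the probe set spread of 0.26, 3 changed sign: neuron markers with the pseudocount (0.48) and with second probe sets (0.85, 1 gene), and, with second probe sets, early response genes (0.21) and astrocyte markers (0.13). Over the genes with a compared second probe set, their brightest ones (a setting chosen after seeing the data) already gave 1.55, 0.096 and 0.14, so restricting the lists to these genes alone turned the 3 signs. A further 4 lists, with medians within 0.097 of 0, changed sign under 1 or more alternatives: ligand activation (-0.025), signal transmission (-0.016 and -0.037), restraint (0.0085) and channel relatives (0.52, 1 gene). Other causes were not tested. No paired analysis was possible because each group holds 1 array.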
